A study of Mus musculus with 2 samples.

Results

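The report covers 9 genes of the YAP and TEAD pathway among the 31053 genes counted in single cells of the mouse corneal epithelium. The 9 genes were taken by name, with no threshold on their values, as members of the pathway or its targets: the co-activators Yap1 and Wwtr1, the DNA-binding factors Tead1 and Tead3, the targets Cyr61, Ctgf and Amotl2, the kinase Lats2 and the LIM protein Ajuba. All 9 were detected, and 9 of 9 or 8 of 9 passed the filter on low counts, depending on the comparison. Their unique molecular identifiers (UMIs, which count captured RNA molecules) were summed over cells that had 500 genes or more and a mitochondrial share of UMIs below 20%. A level is given as CPM, the UMIs of a gene in every 1000000 UMIs of the same cells. Each molecule is counted once from its 3′ end, so a level is not divided by gene length.

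The study asked how stem cell fate is set in the ocular surface epithelium, with Sox9 as a limbal stem cell marker. The labels give 1 group of 2 replicates, both from corneal epithelium of mice of the genotype CycB1-GFP. In this reporter line green fluorescent protein (GFP) is tied to Cyclin B1, a protein that accumulates before mitosis, and only living GFP-positive cells were sorted. Epithelium was peeled after an overnight Dispase treatment and dissociated in trypsin before 10x Genomics 3′ v3 libraries were made. All cells share genotype and sort, and no unsorted or wild-type group was analysed here. Age, sex and the number of animals per library are not stated in the labels. The barcodes carry the number 1 or 2 of their library, which the files do not tie to the replicate numbers, so they are called library 1 and library 2.

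Hippo signalling is a kinase relay that holds the co-activators YAP (Yap1) and TAZ (Wwtr1) out of the nucleus. When the relay is off, both proteins enter the nucleus, bind TEAD factors and switch on genes such as Ctgf, Cyr61 and Amotl2. YAP is largely regulated by phosphorylation and location of the protein, which RNA counts do not show, and in corneal epithelium it has been linked to matrix stiffness and to the balance of limbal and corneal cells. Cyr61 is also an immediate early gene, one of those transcribed within minutes of a stimulus together with Fos.

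TEAD factors bind a short DNA core that reads GGAATG, or CATTCC on the other strand. The stretches printed first show such cores within 250 bases upstream of the RefSeq start sites of 5 members, because these are the letters a TEAD factor reads. The core is in capitals, with 20 bases on each side, read 5′ to 3′ on the gene's strand from RefSeq on GRCm38.p6. They lie at chr9:8004712-8004757 (Yap1, minus strand), chr3:57576021-57576066 (Wwtr1, minus), chr17:28350962-28351007 (the first Tead3 start site, minus), chr9:102717719-102717764 (Amotl2, plus) and chr14:54577800-54577867 (Ajuba, minus). For Ajuba alone, the bases just after the start site were not found in a GENCODE transcript of the gene, so its start site rests on RefSeq only.
Yap1: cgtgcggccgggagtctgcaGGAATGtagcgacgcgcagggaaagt
Wwtr1: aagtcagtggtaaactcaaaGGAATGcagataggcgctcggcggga
Tead3: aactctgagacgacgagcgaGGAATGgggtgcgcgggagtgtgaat
Amotl2: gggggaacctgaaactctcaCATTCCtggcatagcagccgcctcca
Ajuba: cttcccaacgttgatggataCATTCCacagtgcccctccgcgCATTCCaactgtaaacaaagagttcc

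For Cyr61 the whole 250 bases are shown, since its level followed Fos and both the TEAD core and the sites of other factors can be looked for in it. The stretch is chr3:145649986-145650235 on the minus strand of GRCm38.p6, with its TEAD core in capitals 103 bases upstream of the start site.
Cyr61: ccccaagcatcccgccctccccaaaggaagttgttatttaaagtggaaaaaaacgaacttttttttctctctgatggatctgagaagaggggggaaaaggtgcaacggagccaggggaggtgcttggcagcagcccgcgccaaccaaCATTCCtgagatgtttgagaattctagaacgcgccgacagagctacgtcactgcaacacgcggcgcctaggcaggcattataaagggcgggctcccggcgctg

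Of the 9 members, 7 had a RefSeq start site in the table, and 6 of the 7 held the core on either strand, all but Lats2. Tead1 and Ctgf had no start site there, so their promoters were not searched for any motif. Among all 27025 genes with a start site, 14.4% held it, and among all 32851 start sites 12.6%. The members were chosen as pathway and target genes, so this count is a description of their letters and not of binding. The AP-1 site TGANTCA, the cAMP response site TGACGTCA and the serum response (CArG) box were searched for on both strands in the same windows and occurred in 0 of the 7. Among all start sites these 3 motifs were found in 6.75%, 1.55% and 1.47%. No match says only that those letters are not in this window.

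Depth was alike in the libraries. The matrix gives 19001107 UMIs over 3458 barcodes to library 1 and 18030874 over 3294 to library 2. After filtering, 3187 and 3001 cells were left, with medians of 5571 and 5886 UMIs per cell, and 5 barcode sequences occurred in both libraries. Cells with at least 5 Krt12 plus Krt15 UMIs were split by the share of Krt12, the keratin of differentiating cornea, in that sum. A share above 0.8 defined 2304 and 1821 Krt12-dominant cells, here also called corneal-type. A share under 0.4 defined 663 and 959 Krt15-dominant cells, Krt15 being a keratin of limbal basal cells, and 161 and 164 cells lay between. The corneal marker list summed to 29009 and 39367 CPM in Krt12-dominant cells against 2297 and 1916 CPM in Krt15-dominant cells. The limbal list summed to 8100.5 and 4317 CPM against 19497 and 21869 CPM. The corneal list holds Krt12 and the limbal list Krt15, so part of both differences was fixed by the split itself. The conjunctival list, 5 of whose 6 genes were detected, summed to 131.5 and 125.1 CPM in Krt12-dominant and to 1061 and 1919 CPM in Krt15-dominant cells, so conjunctival markers were higher in the class where Ctgf was higher. Within that class Ctgf was lowest, at 7.17 and 8.06 CPM, in cells with 3 or more UMIs of the conjunctival keratin Krt13. The library 1 value rests on 5 UMIs. The immune list summed to at most 3.54 CPM in any class, and the stromal keratocyte list to 64.5 to 153.2 CPM with 4 or 5 of its 6 genes at 0. The melanocyte list stayed at or below 7.53 CPM.

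The co-activators and TEAD factors were present in both libraries. Over all kept cells, Yap1 stood at 49.9 and 44.3 CPM (library 1 first, here and in all pairs of values), and was seen in 24.4% and 22.3% of cells. Wwtr1 stood at 24.0 and 28.9 CPM, Tead1 at 54.9 and 56.0 CPM, and Tead3 at 9.85 and 12.5 CPM. Of the regulators, Lats2 was low in both, at 6.18 and 6.12 CPM, while Amotl2 stood at 24.4 and 19.2 CPM and Ajuba at 52.3 and 45.1 CPM. Ctgf, a secreted matrix-associated protein and classical YAP target, was at 8.74 and 8.65 CPM. Cyr61, its relative of the same CCN family, was the exception at 125.9 and 57.5 CPM, 2.19-fold higher in library 1. Each library is 1 sample, so intervals on its levels cover counting error only, and differences between the libraries carry no test. The Lats2 gene shares exon sequence with the annotated gene Gm49361 on the same strand, so its counts are uncertain, and Yap1 and Ctgf overlap transcripts on the opposite strand.

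Krt12-dominant and Krt15-dominant cells differed most in the 2 CCN targets, and in opposite directions. Cyr61 was 3.43-fold higher in Krt12-dominant cells and Ctgf was 29.2-fold lower, while the co-activators and TEAD factors differed by 1.39-fold or less. Sums of UMIs for each class of each library entered edgeR's quasi-likelihood test, with library as a block and Benjamini-Hochberg adjustment over all 11140 genes tested. A gene was called at an adjusted p under 0.05, which 3625 genes passed. Of the 9 members 5 were called, 3 higher and 2 lower in Krt12-dominant cells, against 32.5% of all genes tested, 15.6% higher and 16.9% lower. With so many genes called, a call alone does not set a member apart. The median log2 fold change was 0.08 over the members and 0.01 over all genes.

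Yap1 was at 52.8 CPM in Krt12-dominant cells of library 1 and 48.6 CPM in those of library 2, against 41.3 and 33.4 CPM in Krt15-dominant cells. Both Krt12-dominant values lay above both Krt15-dominant values. The log2 fold change was 0.48 (SE 0.13, adjusted p = 0.00376), an increase of 1.39-fold. Wwtr1, which encodes the other co-activator, went the other way, with 22.3 and 25.9 CPM in Krt12-dominant against 29.9 and 34.2 CPM in Krt15-dominant cells. Here both Krt12-dominant values lay below the others, and the log2 fold change was -0.38 (SE 0.15, adjusted p = 0.0440). The Yap1 call was lost in 3 of 10 alternatives and the Wwtr1 call in 7 of 10, DESeq2 (adjusted p = 0.162 and 0.431), the fit without the library block (0.0980 and 0.267) and thinned cells (0.126 and 0.256) among both, with the direction kept.

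Tead1 was at 57.0 and 60.6 CPM in Krt12-dominant and at 49.6 and 45.7 CPM in Krt15-dominant cells, again without overlap. Its log2 fold change was 0.33 (SE 0.12, adjusted p = 0.0298), and the call was lost in 4 of 10 alternatives, with an adjusted p of 0.384 in DESeq2 and 0.167 without the block. Tead3, the scarcer family member, stood at 8.67 and 12.3 CPM against 12.5 and 12.3 CPM. The classes overlapped for Tead3 and it was not called (log2 fold change -0.22, SE 0.21, adjusted p = 0.485).

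**Figure D1:**
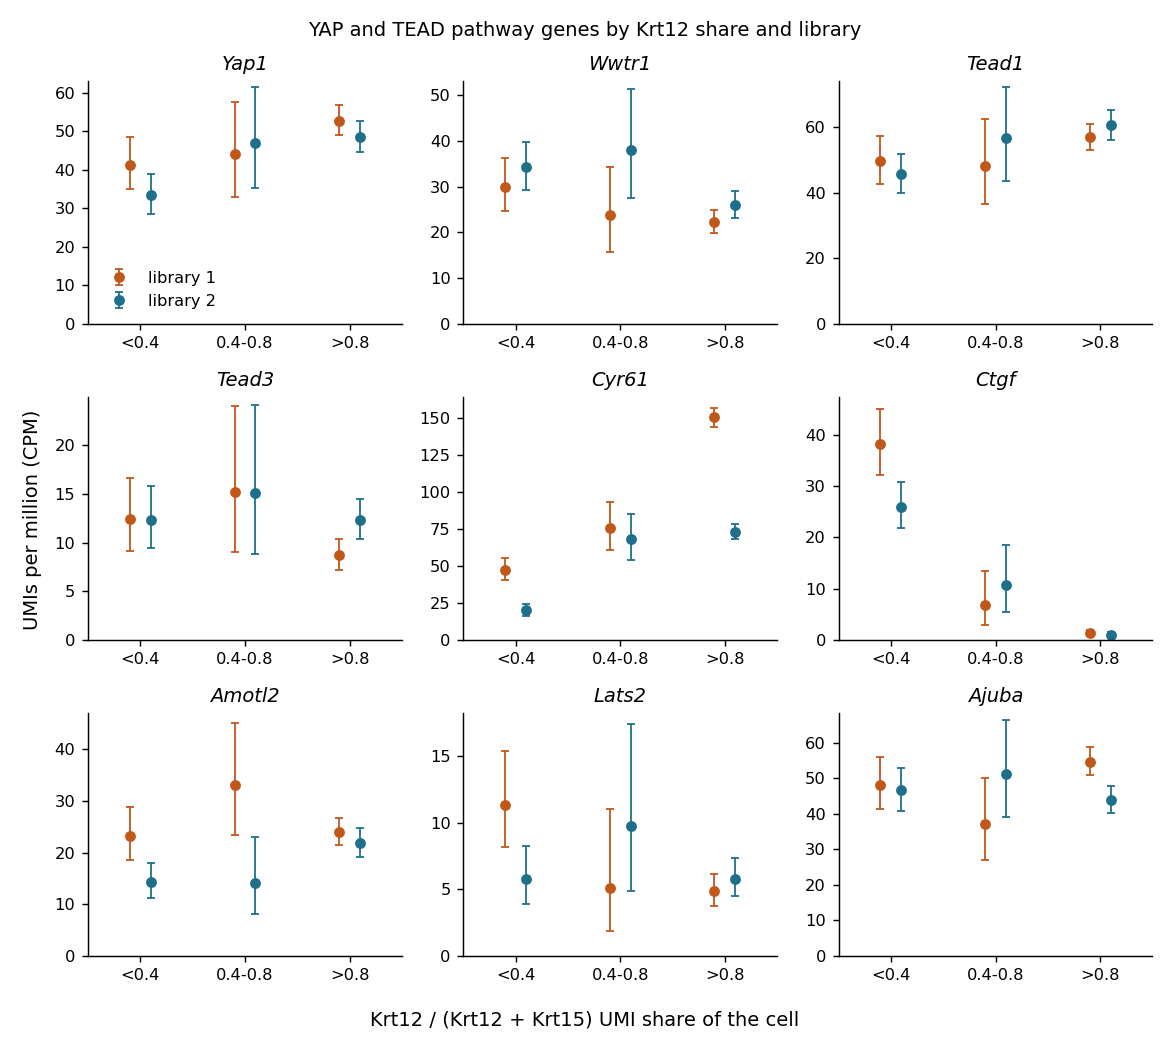
Level of each of the 9 genes (CPM, vertical axis, a linear scale that differs between panels) by Krt12 share of the cell (horizontal axis) in library 1 (orange) and library 2 (blue). Bars are exact Poisson 95% intervals and cover counting error only. Cyr61 rises with the Krt12 share and Ctgf falls from 38.2 and 26.0 CPM to about 1 CPM, while the other panels change far less.

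Cyr61 (annotated as Ccn1, GRCm38 chromosome 3 from 145646976 to 145649981) encodes a secreted protein that binds integrins. It was at 150.2 CPM in Krt12-dominant cells of library 1 and at 73.0 CPM in those of library 2. In Krt15-dominant cells it was at 47.4 and 19.9 CPM, and cells with a mixed share lay between in library 1 (75.3 CPM) and near the Krt12-dominant level in library 2 (68.2 CPM). The classes did not overlap, and the log2 fold change was 1.78 (SE 0.19, adjusted p = 0.000164). Cyr61 was also seen in more cells, 43.9% and 28.9% of Krt12-dominant cells against 19.0% and 8.45% of Krt15-dominant cells. The median cell held 5784.5 and 6375 UMIs in the first class and 5002 and 5096 in the second. With each cell thinned to 2000 UMIs these shares were 22.6% and 12.1% against 8.26% and 3.29%. The call was lost without the library block (log2 fold change 1.79, adjusted p = 0.132), where the gap between libraries enters the error.

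Ctgf was found mostly in Krt15-dominant cells, which held 138 of its 164 UMIs in library 1 and 131 of 154 in library 2. The gene (annotated as Ccn2) lies on GRCm38 chromosome 10 from 24595442 to 24598683. It was at 38.2 and 26.0 CPM in Krt15-dominant cells, at 6.77 and 10.6 CPM in the mixed class, and at 1.23 and 0.866 CPM in Krt12-dominant cells. Those last levels rest on 17 and 10 UMIs among 2304 and 1821 cells. The log2 fold change was -4.87 (SE 0.27, adjusted p = 6.56e-15), and the ratio of the levels was 31.2 (95% counting interval 18.8 to 55.0) in library 1 and 30.1 (15.8 to 64.1) in library 2. At 2000 UMIs per cell, 7.94% and 5.78% of Krt15-dominant cells had a Ctgf UMI, against 0.294% and 0.123% of Krt12-dominant cells. Free RNA in droplets can give a UMI to a cell that does not express the gene. Cells with 3 or more immune marker UMIs, which should lack Ctgf, had a Ctgf UMI in 0 of 5 and 0 of 18 cells (exact binomial upper limits of 52.2% and 18.5%), too few to set a background, while 2 and 12 of them had a Krt12 UMI. The ratios therefore compare counted UMIs, and whether the few Ctgf UMIs of Krt12-dominant cells came from those cells was not tested. The call held under all 10 alternatives, with log2 fold changes from -5.49 to -4.79.

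Amotl2, Lats2 and Ajuba, which act back on the pathway, were not called between the classes. Amotl2, whose product binds YAP and keeps it in the cytoplasm, was at 24.0 and 21.8 CPM in Krt12-dominant and 23.3 and 14.3 CPM in Krt15-dominant cells (log2 fold change 0.34, SE 0.18, adjusted p = 0.156). Lats2, the kinase that phosphorylates YAP, was at 4.84 and 5.80 CPM against 11.4 and 5.76 CPM. The Krt15-dominant cells of library 1 stood apart from the other 3 sums for Lats2, and it was not called (log2 fold change -0.61, SE 0.31, adjusted p = 0.139). Ajuba, a LIM protein that restrains LATS kinases, was at 54.7 and 44.0 CPM against 48.2 and 46.7 CPM, with overlapping classes (log2 fold change 0.08, SE 0.13, adjusted p = 0.708).

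Other genes of the pathway were followed as lists. Of 24 Hippo pathway genes 21 could be tested, of which 1 rose and 3 fell in Krt12-dominant cells (DESeq2 called 2), with a median log2 fold change of -0.13. Of all genes tested, edgeR called 15.6% higher and 16.9% lower, so these calls alone do not set the list apart. Sav1, the scaffold of the MST kinases, fell by 1.08 on the log2 scale (26.1 and 25.9 CPM against 56.5 and 56.0 CPM). Ptpn14, a phosphatase that binds YAP, fell by 0.53, and the kinase Taok3 fell by 0.35. The gene that rose was the TEAD cofactor Vgll3, by 2.17 on the log2 scale at 12.1 and 11.7 CPM against 2.49 and 2.78 CPM; it is below the 20 CPM set for naming and was singled out after its values were seen.

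Of 22 commonly used YAP targets, a list that holds Cyr61, Ctgf, Amotl2 and Lats2 too, 19 were tested. In Krt12-dominant cells 6 rose and 5 fell (median log2 fold change 0.18, with 8 called by DESeq2). The list moved in both directions, as did all genes tested, of which 15.6% rose and 16.9% fell. Nt5e, the ecto-enzyme CD73, fell by 5.16 on the log2 scale, from 66.0 and 66.8 CPM in Krt15-dominant cells to 2.24 and 1.30 CPM. Igfbp3, a growth factor binding protein, fell by 3.99, from 54.0 and 24.6 CPM to 4.62 and 0.346 CPM. The kinase Nuak2 rose by 0.85 on that scale and Asap1, a regulator of small GTPases, by 0.81. Ankrd1, another common YAP target, had 0 UMIs in both libraries.

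Beside these stood immediate early genes and actin genes, to be read against 15.6% of all genes tested that rose and 16.9% that fell. Of 15 immediate early genes tested 6 rose and 0 fell in edgeR (DESeq2 called 7, and 8 were under 0.05 before adjustment), with a median log2 fold change of 0.58. They included Zfp36 (log2 fold change 1.50), Fosb (1.43), Ier2 (1.18), Rhob and Junb (0.88 each). The list summed to 6859 and 3433 CPM in Krt12-dominant cells against 4342 and 1832 CPM in Krt15-dominant cells. Of 10 serum response factor and actin genes tested, 2 rose (Actb and Actg1, by 0.17 and 0.15, named after their values were seen) and 6 fell, with a median of -0.63, and DESeq2 called 6. Tpm1, a tropomyosin, fell by 3.13 on the log2 scale.

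Within Krt12-dominant cells, Cyr61 was the member that rose with Fos, the gene of a transcription factor that marks the immediate early response. Of these cells 308 in library 1 and 524 in library 2 had 0 Fos UMIs, 396 and 666 had 1 to 3, and 1600 and 631 had 4 or more. Cyr61 was at 36.4 CPM in cells of library 1 with 0 Fos UMIs, at 133.3 CPM with 1 to 3 and at 169.7 CPM with 4 or more. In library 2 it was at 36.8, 62.5 and 97.7 CPM. The level rose at each step in both libraries, from lowest to highest by 4.67-fold in library 1 (95% counting interval 3.57 to 6.22) and 2.65-fold in library 2 (2.11 to 3.37).

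The contrast of 4 or more against 0 Fos UMIs covered 10435 genes, of which 0.776% were called (0.498% higher and 0.278% lower). Of the 8 members tested, 1 was called, Cyr61, with a log2 fold change of 1.82 (SE 0.21, adjusted p = 0.00840). Its log2 change within each library was 2.22 and 1.41. Without the library block no gene passed in edgeR (345 of 10435 were under 0.05 before adjustment, and Cyr61 had a log2 fold change of 1.93 and an adjusted p of 0.999945), whereas DESeq2, with the block, called 37 genes and Cyr61 among them (adjusted p = 1.01e-09). Cells with 4 or more Fos UMIs were deeper, with medians of 6146 and 7163 UMIs against 4909.5 and 4732.5. In cells thinned to 2000 UMIs the Fos bins were taken anew, leaving 755 and 106 cells with 4 or more Fos UMIs and 441 and 777 with 0. The bin of 0 then took in cells that had Fos UMIs before thinning. Between these bins the Cyr61 log2 fold change was 1.44 (edgeR adjusted p = 5.37e-13).

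No other member was called by Fos. Yap1 was at 51.9 and 51.1 CPM with 4 or more Fos UMIs against 54.2 and 45.6 CPM with 0 (log2 fold change 0.09, SE 0.14), and Wwtr1 at 22.3 and 26.8 CPM against 22.5 and 23.4 CPM (0.14, SE 0.18). Tead1 had a log2 fold change of -0.14 (SE 0.13), Tead3 of -0.52 (SE 0.26, adjusted p = 0.499), Amotl2 of 0.32 (SE 0.19, adjusted p = 0.582), Lats2 of -0.23 (SE 0.37) and Ajuba of -0.15 (SE 0.14). Missing the threshold does not show that these levels were equal. Ctgf was too rare in these cells to be tested, with 3 and 2 UMIs at 0 Fos UMIs and 10 and 7 UMIs at 4 or more.

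**Figure D2:**
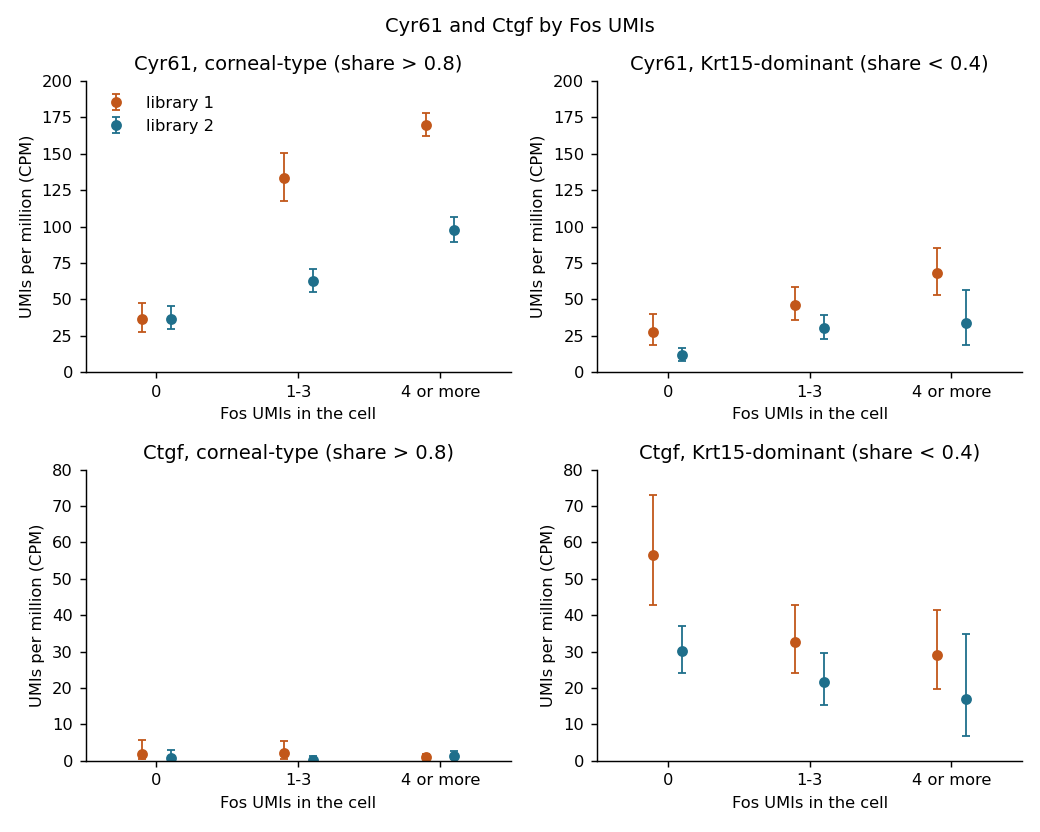
Levels of Cyr61 (upper panels) and Ctgf (lower panels) in CPM by the number of Fos UMIs in the cell, for Krt12-dominant cells (left, titled corneal-type) and Krt15-dominant cells (right), in library 1 (orange) and library 2 (blue). Bars are exact Poisson 95% intervals. Cyr61 climbs with Fos in both cell classes, and at 0 Fos UMIs both libraries meet at 36.4 and 36.8 CPM in corneal-type cells, while Ctgf stays near 0 in corneal-type cells and does not climb in Krt15-dominant cells.

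Of 15 immediate early genes tested, from a list of 16 that does not hold Fos, 5 rose with Fos in edgeR and 10 in DESeq2, with a median log2 fold change of 1.62 against 0.01 over all genes. Egr1 rose by 2.08, Jun by 1.94, Btg2 by 1.62 and Socs3 by 1.32 on the log2 scale; the fifth was the scarce nuclear receptor gene Nr4a1, below the 20 CPM set for naming and singled out after its values were seen. Of the 18 YAP targets tested 1 rose and 0 fell in edgeR, and the 1 was Cyr61 (DESeq2 called 1, and 2 were under 0.05 before adjustment). Of 21 Hippo genes edgeR called 0, with 4 under 0.05 before adjustment and 0 in DESeq2. Of 10 serum response and actin genes both tools called 0, with 0 under 0.05 before adjustment. Of all genes tested by Fos, edgeR called 0.776%.

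Cyr61 also rose with Fos in Krt15-dominant cells. There it was at 27.7, 46.2 and 67.8 CPM with 0, 1 to 3 and 4 or more Fos UMIs in library 1, and at 11.6, 30.1 and 33.8 CPM in library 2, the last from 14 UMIs. An edgeR model over 12 sums (2 libraries, 2 classes and 3 Fos bins, chosen after the data were seen) gave a Fos log2 effect on Cyr61 of 1.82 (SE 0.18, adjusted p = 3.58e-06) in Krt12-dominant cells, where 0.439% of 10247 genes were called. It gave 1.52 (SE 0.30, adjusted p = 0.0177) in Krt15-dominant cells, where 0.381% were called. The effects differed by 0.30 (SE 0.36, adjusted p = 0.986, 0.0878% of genes called), so the test did not separate the classes.

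Ctgf was not called by Fos in Krt15-dominant cells. It was at 56.4, 32.5 and 29.2 CPM from the lowest to the highest Fos bin in library 1 and at 30.1, 21.6 and 16.9 CPM in library 2, the last from 7 UMIs. The values descended in both libraries, but the log2 effect of -0.85 (SE 0.31, adjusted p = 0.388) was not called. Cyr61 and Ctgf thus gave values of opposite sign in the same cells, and only that of Cyr61 passed the test.

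The gap between the libraries in Cyr61 differed in size from bin to bin of Fos. In Krt12-dominant cells Cyr61 was 2.06-fold higher in library 1 over all Fos bins, but 0.988-fold at 0 Fos UMIs, 2.13-fold at 1 to 3 and 1.74-fold at 4 or more. The immediate early list, which does not hold Fos, summed to 1564 and 1664 CPM at 0 Fos UMIs and to 8155 and 4383 CPM at 4 or more in the same cells. Egr1, a transcription factor on that list, was higher in library 2 in both of these bins, with 22.5 and 53.1 CPM at 0 Fos UMIs and 101.6 and 200.7 CPM at 4 or more. In Krt15-dominant cells with 0 Fos UMIs Cyr61 was 2.40-fold higher in library 1, from 28 and 33 UMIs. Library 1 held the larger share of Krt12-dominant cells with 4 or more Fos UMIs, 69.4% against 34.7%. Fos itself differed within a bin, so the bins do not compare the libraries at equal Fos. Over all kept cells it was at 372.6 and 287.9 CPM with 1 to 3 Fos UMIs and at 1804 and 977 CPM with 4 or more.

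When the classes were compared in cells with 0 Fos UMIs, Cyr61 was still higher in Krt12-dominant cells and Ctgf still lower. Of the 9 members 2 were called, 1 higher (8.33% of all 10066 genes tested) and 1 lower (9.74%), with 18.1% called in either direction. Cyr61 was at 36.4 and 36.8 CPM in Krt12-dominant against 27.7 and 11.6 CPM in Krt15-dominant cells. The classes did not overlap, and the log2 fold change was 1.10 (SE 0.29, adjusted p = 0.0141), against 1.78 in all cells. Library 2 carried most of it, with a log2 change of 1.67 against 0.39 in library 1, whose ratio of 1.31 had a counting interval of 0.818 to 2.15. The call was lost in DESeq2 (adjusted p = 0.915), without the library block (adjusted p = 0.104) and with share limits of 0.3 and 0.9 (adjusted p = 0.164).

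Ctgf at 0 Fos UMIs was at 1.98 and 0.837 CPM, from 3 and 2 UMIs, against 56.4 and 30.1 CPM. The ratio was 28.5 in library 1 (95% counting interval 9.26 to 142.1) and 35.99 in library 2 (9.66 to 301.9), and the call had an adjusted p of 2.84e-08. The residual degree of freedom is 1 here, from 5 sums, because the mixed class of library 1 held only 29 such cells and was left out. Yap1 (0.49, SE 0.21, adjusted p = 0.115), Wwtr1 (-0.51, SE 0.24, adjusted p = 0.179) and Tead1 (0.29, SE 0.19, adjusted p = 0.354) kept the sign they had in all cells but were not called. In the 12-sum model, where 22.3% of genes were called at 0 Fos UMIs, Cyr61 (1.11, adjusted p = 0.00359), Yap1 (0.53, adjusted p = 0.0360) and Ctgf (-4.90) were called, and at 4 or more Fos UMIs, where 15.4% were called, Cyr61 (1.41, adjusted p = 4.24e-05) and Ctgf (-4.40) were.

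Among cells with 0 Fos UMIs the immediate early list had 0 of 14 tested genes called by edgeR or DESeq2, 2 under 0.05 before adjustment and a median log2 fold change of -0.34. Of 18 YAP targets 5 rose and 4 fell, among them Nt5e (log2 fold change -5.73), Igfbp3 (-5.32) and Asap1 (1.00), and DESeq2 called 3. Of 21 Hippo genes 1 rose and 2 fell in edgeR and 0 were called by DESeq2 (5 were under 0.05 before adjustment), with Sav1 down by 1.18 and Wtip, a LIM protein of the Ajuba family, by 0.87, and the 1 was Vgll3 again (2.59, singled out after its values were seen). Of 10 actin genes 0 rose and 6 fell in edgeR and 2 were called by DESeq2, with Tpm1 down by 3.52 and Actn1 by 2.56. Of all genes tested at 0 Fos UMIs, edgeR called 8.33% higher and 9.74% lower.

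**Figure D3:**
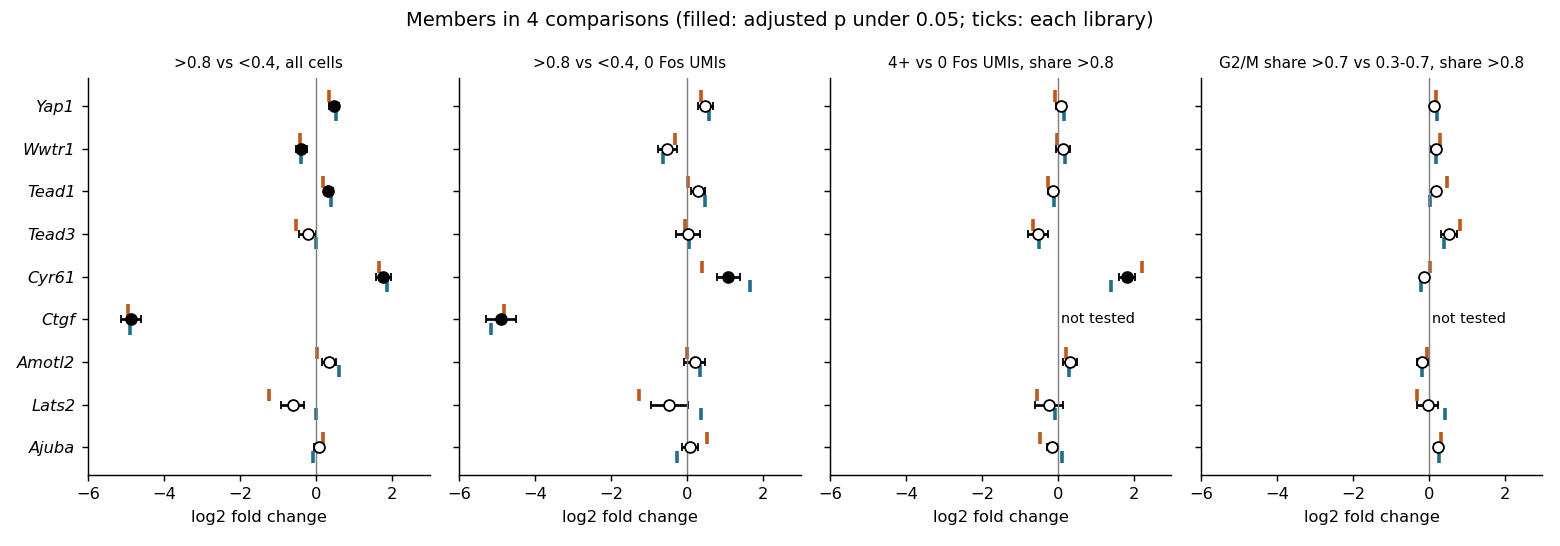
Log2 fold change (horizontal axis) of each member in 4 comparisons from edgeR's quasi-likelihood test, with bars of 1 standard error. Filled points have an adjusted p under 0.05, and ticks give the change within library 1 (orange) and library 2 (blue). Cyr61 and Ctgf lie farthest from 0 in the class comparisons, and Cyr61 is the only filled point for Fos.

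Since the sort took cells by a Cyclin B1 reporter, members were also compared within Krt12-dominant cells by cell cycle phase. The planned contrast of G2/M-rich against S-rich cells could not be run, as only 12 and 8 cells had a G2/M share under 0.3 of the S and G2/M list UMIs. Cells with a share above 0.7 (1508 and 1204) were compared with those at 0.3 to 0.7 (759 and 590) instead, a contrast chosen after seeing these numbers. Of 8 members tested 0 were called by edgeR or DESeq2, with 3 under 0.05 before adjustment, while 23.5% of 11102 genes were called, 9.97% higher and 13.6% lower. Tead3 had the largest change, with 10.2 and 13.3 CPM in G2/M-rich against 5.74 and 9.99 CPM in mixed cells (log2 fold change 0.54, SE 0.22, adjusted p = 0.0563).

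Cyr61 was at 151.1 and 70.0 CPM in G2/M-rich against 146.7 and 79.9 CPM in mixed cells (log2 fold change -0.12, SE 0.08, adjusted p = 0.317). Without TMM scaling, 1604 genes were called higher and 1125 lower instead of 1107 and 1507, and Tead1, Tead3 and Ajuba passed as higher, so the call for these genes changed with the scaling, which moved the median log2 change of all genes from -0.0065 to 0.06. Of the 21 Hippo genes tested 5 rose, such as Wwc2 (0.48) and Frmd6 (0.36), and 2 fell, Wtip (-1.24) and Stk3 (-0.57, below 20 CPM). Of the YAP targets 1 of 18 rose (F3, 0.50) and 1 fell (Dock5, -0.59, below 20 CPM), of the immediate early genes 1 of 15 rose (Rhob, 0.26) and 2 fell (Junb, -0.16, and Socs3, -0.59), and of the actin genes 1 of 10 rose (Actg1, 0.20) and 1 fell (Tpm4, -0.31). Stk3 and Dock5 were named after their values were seen. DESeq2 called 1 of the Hippo genes, 1 of the YAP targets and 0 of the immediate early and actin genes in this contrast.

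The Cyr61 level depended on the depth of the cell in library 1. When Krt12-dominant cells were ranked by UMIs and cut into 5 equal groups, the shallowest group of library 1 (median 1791 UMIs) had 488.2 CPM of Cyr61, from 433 UMIs in 203 of 461 cells, and the other groups 116.3 to 155.3 CPM. In library 2 the shallowest group had 78.2 CPM and the others 51.7 to 80.9 CPM. The shallowest group of library 1 also had a median of 6.86% mitochondrial UMIs, against 2.20% to 2.55% in the others. Without the shallowest 20% of cells the Cyr61 log2 fold change was 1.76 between the classes (adjusted p = 0.000327) and 1.94 by Fos (adjusted p = 9.59e-08), close to the values with them. A mitochondrial limit of 10% lowered Cyr61 over all cells of library 1 from 125.9 to 117.8 CPM.

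**Figure D4:**
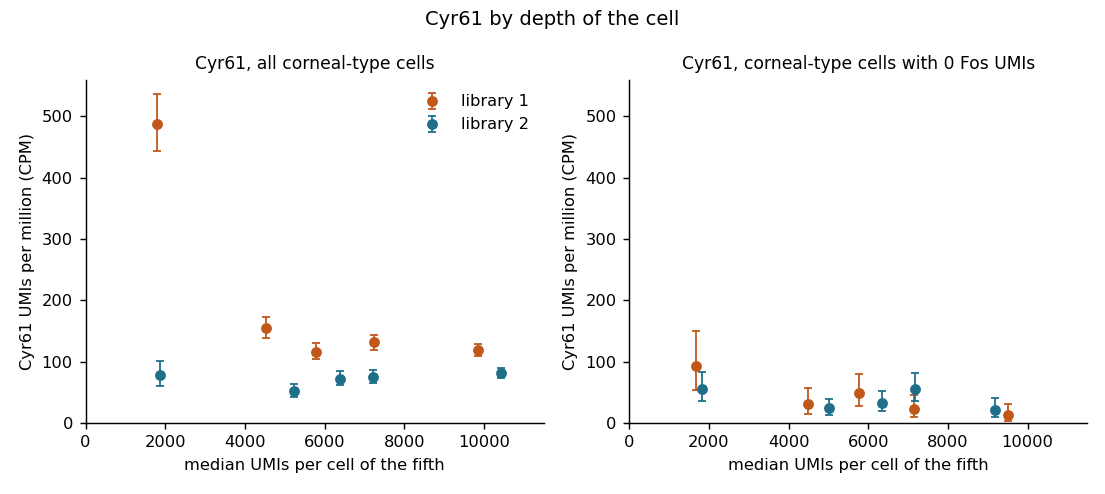
Level of Cyr61 (CPM) in 5 equal groups of Krt12-dominant (corneal-type) cells ranked by UMIs, plotted at the median UMIs per cell of each group, for all such cells (left) and those with 0 Fos UMIs (right). Bars are exact Poisson 95% intervals, library 1 is orange and library 2 blue. The shallowest group of library 1 stands at 488.2 CPM, and at 93.2 CPM where Fos was not seen.

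Within Krt15-dominant cells, Ctgf was not spread evenly. It was at 11.8 and 12.1 CPM in cells with 0 UMIs of Gpha2, a limbal stem cell marker, at 23.2 and 12.8 CPM with 1 or 2, and at 59.3 and 32.8 CPM with 3 or more. By Krt13, a conjunctival keratin, it went the other way, with 50.4 and 35.2 CPM at 0 Krt13 UMIs, 31.6 and 25.7 CPM at 1 or 2, and 7.17 and 8.06 CPM at 3 or more. The last value of library 1 came from 5 UMIs in 4 of 99 cells. Median depth was 6621 and 6313 UMIs at 3 or more Krt13 UMIs, against 4604.5 and 4686 at 0. Cells with more Krt13 also had less Gpha2 (865.7 and 1378 CPM at 0 Krt13 UMIs, 240.9 and 483.0 CPM at 3 or more), so the splits are not independent. They were chosen after values had been seen and carry no test. Ctgf UMIs were found in 92 of 663 and 95 of 959 cells, with at most 9 and 4 in a cell.

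Cyr61 followed the same splits less evenly. It was at 42.6, 32.2 and 58.2 CPM with rising Gpha2 in library 1 and at 7.53, 10.8 and 25.1 CPM in library 2. By Krt13 it descended from 58.2 to 44.0 and 17.2 CPM in library 1 and from 28.5 to 13.4 and 7.33 CPM in library 2. Of the Krt15-dominant cells with a Ctgf UMI, 30.4% and 14.7% also had a Cyr61 UMI, against 17.2% and 7.75% of those without, a description that depth per cell enters.

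**Figure D5:**
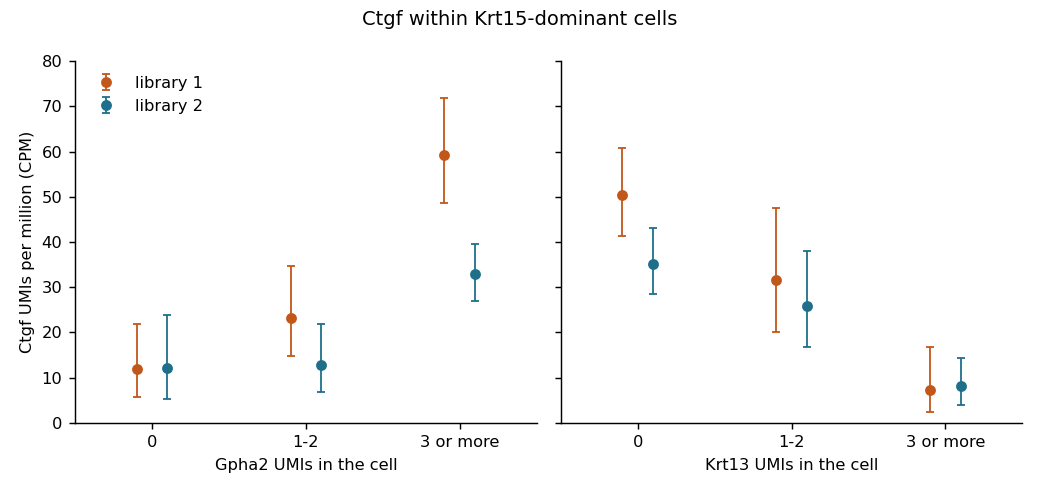
Level of Ctgf (CPM) within Krt15-dominant cells by the number of Gpha2 UMIs (left) and Krt13 UMIs (right) in the cell, for library 1 (orange) and library 2 (blue), with exact Poisson 95% intervals. Ctgf reaches 59.3 and 32.8 CPM in cells with 3 or more Gpha2 UMIs and falls to 7.17 and 8.06 CPM in those with 3 or more Krt13 UMIs.

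Genes most alike in pattern were sought over 18 sums (2 libraries, 3 Krt12 shares and 3 Fos bins), by Pearson correlation of log2(CPM + 1) among genes averaging at least 20 CPM. The sums share libraries, depth and the bins themselves, so the correlations are descriptions. Cyr61 was most like the immediate early gene Ier2 (r = 0.90), followed by Rfc2 (0.87), Junb (0.86), Zfp36l2 (0.85) and Nfkbiz (0.84). Its correlation with Fos, the gene that set the bins, was 0.72, with Ctgf -0.29 and with Yap1 0.50. Ctgf was most like Rex1bd and Anpep (0.92 each), then Nt5e, Hadh and Sav1 (0.91 each), with Wwtr1 at 0.63 and Yap1 at -0.64.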

How the data were processed

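The deposited matrix holds whole-number UMI counts per gene and barcode, stored as integer values in Matrix Market format per the file headers. The submitters' processing notes name Cell Ranger 3.1.0, Seurat 5.0.0 and GRCm38/mm10; whether the authors equalised depth between the libraries is not given in the sources used here. Of the 6752 barcodes, 475 with under 500 genes and 311 with 20% or more mitochondrial UMIs (some met both) were left out, leaving 6188 cells. Doublets were not called, and an alternative left out the 3% of cells with most UMIs.

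UMIs were summed per library and class, because cells are not replicates, and sums of at least 50 cells entered edgeR 4.0.16 under R 4.3.3, where genes passed filterByExpr, sums were scaled by TMM and library was a block in the robust quasi-likelihood test. The block stands for the library itself, since all sums of a library come from 1 sample. Nothing says that the libraries came from separate animals, so p-values measure only the spread between these sums. With 2 libraries the class and Fos fits have 6 sums and 2 residual degrees of freedom, and the phase fit 4 and 1. The SE is the absolute log2 fold change over the square root of F. DESeq2 1.42.0 was an alternative, as were no filter, no TMM, no library block, a mitochondrial limit of 10%, cells thinned to 2000 UMIs (662 shallower cells left out), other share limits and a minimum of 10 Krt12 plus Krt15 UMIs. The planned contrast against S-rich cells and its share limits of other size could not be run. Fits on thinned cells took the classes and bins anew from the thinned counts. Intervals (95%, exact Poisson or binomial) cover counting error only.

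The 9 genes and the lists (Hippo, YAP targets, immediate early, serum response and actin, cell type markers, S and G2/M genes) were chosen with earlier results of these data known. Of a list, up to 5 called genes per contrast with the largest changes and at least 20 CPM were named. The fits were tested on simulated data. Promoters came from RefSeq on GRCm38.p6 and gene overlaps from the GENCODE annotation of GRCm38, the build the submitters' notes name.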

Additional observations from a re-analysis of the deposited data

How the results depend on the processing

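Limits: the 2 libraries give 1 or 2 residual degrees of freedom per fit (5 in the 12-sum model), and most members have few UMIs per cell, so small changes in Tead3, Lats2 and Amotl2 were not resolved. Leaving out 1 library leaves no residual degrees of freedom, and each library alone is a value without a test. Across the members, the log2 changes of a library alone ran from -4.96 to 1.88 (class), -0.66 to 2.22 (Fos), -5.17 to 1.67 (class at 0 Fos UMIs) and -0.31 to 0.83 (phase).

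The paired design is the main one here (library as block); without that block the genes called went from 3625 to 1553 (class), 81 to 0 (Fos), 1818 to 971 (class at 0 Fos UMIs) and 2614 to 220 (phase), and the members from 5 to 1, 1 to 0, 2 to 1 and 0 to 0. With DESeq2 the genes called were 1777, 37, 364 and 454, and the members 2 (class) and 1 (class at 0 Fos UMIs). In cells thinned to 2000 UMIs they were 2169 (class, with 3 members), 130 (Fos) and 1152 (phase). Fos gave 225 without the filter and 157 for 1 or more UMIs against 0. Members called were 3 without the shallowest 20% of cells (class), 1 with share limits of 0.3 and 0.9 (class at 0 Fos UMIs) and 3 without TMM (phase). The shares of all genes called under these settings are not given, so these counts alone do not set the members apart.

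Among the alternatives that use both libraries only uncalled members changed sign, and the cause was not tested. For the class these were, thinned, Tead3 (0.22) and Ajuba (-0.051). For Fos they were, thinned, Yap1 (-0.26), Wwtr1 (-0.41), Tead1 (0.12) and Tead3 (0.25). For the class at 0 Fos UMIs they were Tead3 (-0.037 at a mitochondrial limit of 10%, -0.036 thinned, -0.10 with share limits of 0.3 and 0.9), Ajuba (-0.087 thinned) and Amotl2 (-0.053 without the shallowest 20%). For phase it was Lats2 (0.0020 without the filter, 0.038 without TMM). In a library alone, uncalled members with the other sign were Lats2 (0.010, library 2) and Ajuba (-0.086, library 2) by class, Yap1 (-0.064, library 1), Wwtr1 (-0.012, library 1) and Ajuba (0.10, library 2) by Fos, Tead3 (-0.035, library 1), Lats2 (0.37, library 2) and Ajuba (-0.24, library 2) by class at 0 Fos UMIs, and Cyr61 (0.042, library 1) and Lats2 (0.43, library 2) by phase. Of the members' log2 changes under the other alternatives, 15 class calls, 1 Fos call and 3 calls at 0 Fos UMIs were lost.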

Other observations

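Krt16, a keratin of stressed or rapidly growing epithelium, also split Krt12-dominant cells, in a division chosen after the data were seen. Cyr61 was at 161.2 and 73.4 CPM in cells with 0 Krt16 UMIs, at 125.0 and 69.9 CPM with 1 to 4 and at 104.5 and 68.2 CPM with 5 or more. It thus descended in library 1 and moved little in library 2. Depth rose along this split, with medians of 5507.5, 6992 and 8564 UMIs in library 1 and 6288, 7389 and 7678.5 in library 2. Since Cyr61 also varied with depth in library 1, the split does not separate Krt16 from depth, and this was not tested. Ctgf stayed at or below 2.70 CPM in all of these cells. In the few cells with 3 or more UMIs of immune genes, 5 in library 1 and 18 in library 2, Yap1, Wwtr1, Tead1, Tead3, Cyr61 and Ctgf had 0 UMIs. Amotl2, Lats2 and Ajuba had 0 UMIs in library 1 and 1 each in library 2 (24.3 CPM). These cells held 11417 and 41218 UMIs in all, so a count of 0 allows up to 323.1 and 89.5 CPM (exact Poisson 95% interval), above the level of most members in the other cells.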
